A study of Homo sapiens with 6 samples.

Results

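Peptides shown on HLA class I begin as fragments that proteasomes cut from cytosolic proteins, and 10 genes of the steps that make and load them are described here. They are PSMB8, PSMB9, PSMB10, PSME2, TAP1, TAP2, TAPBP, ERAP1, ERAP2 and NLRC5, taken by symbol from the 58174 genes in the files. They were measured by mRNA sequencing in SiHa, an established human cervical squamous carcinoma line that carries HPV16. Both groups were transfected with Lipofectamine 3000 and analysed 48 h later. The OV-BRCA1 group received the GV230-BRCA1 plasmid, and the NC group received the empty GV230 plasmid. Each group had 3 samples, which the study calls biological replicates, and all came from 1 cell line. RNA was measured over whole cultures, and untransfected cells were not analysed here. The promoter that drives BRCA1 in the plasmid and the share of cells that took it up are not given in the sources used here. A higher level in every cell and a higher level in some of the cells therefore cannot be told apart.

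The standard proteasome cuts with 3 catalytic subunits, PSMB5, PSMB6 and PSMB7. In the immunoproteasome these are replaced by PSMB8, PSMB9 and PSMB10, which most cells make at low levels until interferon reaches them, and the activator made of PSME1 and PSME2 helps open the core. The transporter made of TAP1 and TAP2 carries the peptides into the endoplasmic reticulum, where ERAP1 and ERAP2 trim their ends and TAPBP (tapasin) holds class I molecules next to the transporter while they are loaded. NLRC5 is the transactivator of class I genes.

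The deposited values are FPKM, a fragment count scaled for transcript length and for the size of the library, and the transcripts of a gene were added up. In the OV-BRCA1 group 9 of the 10 genes rose and none fell. The transporter subunit TAP1 rose most, to 4.77 times its NC mean, followed by PSMB9 (4.04 times), TAP2 (3.96 times) and PSMB8 (2.55 times). ERAP1, ERAP2, PSMB10, NLRC5 and PSME2 rose by factors between 1.60 and 2.15, and TAPBP stood at 1.07 times its NC mean and did not pass the test. "Rose" and "fell" stand for a Benjamini-Hochberg adjusted p below 0.05 in limma's moderated test of log2(FPKM + 1), adjusted over the 16321 genes that reached 0.5 FPKM in 3 or more samples. The log2 fold change (log2FC) is OV-BRCA1 against NC on that scale, and SE is its standard error. All 10 genes passed that filter in both groups. Over all genes tested, 16.4% rose and 18.9% fell, 35.3% in all. The screening criterion of the study adds an absolute log2FC above 1, and TAP1, PSMB9, TAP2 and PSMB8 met it, against 2.89% of all genes tested. Over the 10 genes the median log2FC was 0.89, and that of all genes tested was -0.04. For each of the 10 genes the lowest OV-BRCA1 value exceeded the highest NC value, which held for 23.4% of all genes tested, while 50.8% had separate groups in one direction or the other.

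**Figure D1:**
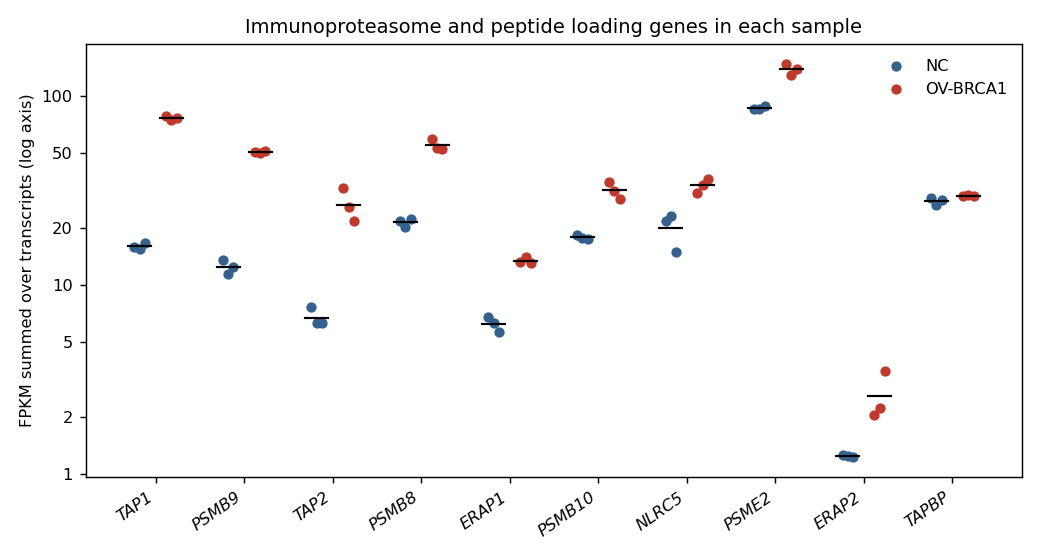
FPKM summed over transcripts (log axis) of the 10 genes in the 3 NC samples (blue) and the 3 OV-BRCA1 samples (red), with genes in order of their log2FC and a black line at each group mean. TAP1 stood at 15.5 to 16.6 in NC and 74.2 to 78.4 in OV-BRCA1, whereas TAPBP stood at 26.4 to 28.8 and 29.4 to 29.96.

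The depth behind the values was estimated, since the files hold no counts. It was 14.35 M to 16.58 M fragments for OV-BRCA1 and 16.27 M to 20.37 M for NC. The study lists the total reads sequenced for each sample, which were not used for this estimate. BRCA1 itself rose (log2FC 0.95, SE 0.14, adjusted p = 0.00373), from FPKM values of 20.1, 14.9 and 21.7 in NC to 35.7, 40.8 and 34.9 in OV-BRCA1. Mitochondrial genes took 14.8% to 17.2% of the summed FPKM in OV-BRCA1 and 21.0% to 23.2% in NC, and with samples scaled to nuclear protein-coding genes 9 of the 10 genes again rose. Of 9 epithelial markers, KRT7, KRT8, KRT18 and CDKN2A were above 100 FPKM in every sample. The squamous markers KRT5 and TP63 were below 0.5 FPKM in every sample, CDH1 was at 0.170 to 0.896 and KRT19 at 0.206 to 0.917. EPCAM was at 5.93 to 7.65 FPKM in OV-BRCA1 and 2.11 to 3.01 in NC, so that the groups did not overlap. KRT18 (248.8 to 256.2 and 188.2 to 198.7), KRT8 (353.6 to 384.9 and 316.0 to 339.3) and TP63 (0.192 to 0.369 and 0.0131 to 0.0370) were separate in the same direction. The other epithelial markers overlapped, and the part of these differences in the results was not tested. Of 9 leukocyte markers, 6 were below 0.5 FPKM in every sample and PTPRC and MS4A1 were at 0. The 9 markers summed to 7.65 to 9.95 FPKM in OV-BRCA1 and 19.3 to 21.4 in NC, nearly all of it CD14, and the part of this difference in the results was not tested. All 5 fibroblast markers and 2 of 3 endothelial markers were below 0.5 FPKM in every sample.

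The promoters are shown because most of these genes moved together and hold the letters of a motif. The interferon-stimulated response element (ISRE) is the site that interferon regulatory factors bind, and its core was searched on both strands as GAAA, any 2 bases and GAAA. Windows of 300 bases, 250 before to 50 after each start, came from RefSeq on GRCh38.p14, and 9 of the 10 genes had at least 1. The letters occurred in a window of 8 of these 9 genes, and in 3.57% of all 35116 windows or 4.38% of the 27305 genes that have one. The 30 bases around each match are printed 5′ to 3′ on the strand of the gene, with the matched letters in capitals. A match on the other strand reads TTTC, any 2 bases and TTTC.
PSMB8: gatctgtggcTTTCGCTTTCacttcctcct
PSMB10: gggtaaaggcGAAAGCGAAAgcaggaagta
PSME2: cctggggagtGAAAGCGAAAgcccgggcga
TAP1: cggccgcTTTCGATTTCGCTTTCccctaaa
TAP2: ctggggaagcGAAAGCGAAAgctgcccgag
TAPBP: tttggagGAAAGTGAAAGTGAAAggaggaa
ERAP1: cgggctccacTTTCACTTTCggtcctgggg
ERAP2: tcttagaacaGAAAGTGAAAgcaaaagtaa

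These stretches lie at chr6:32844032-32844061 (PSMB8, minus strand), chr16:67936852-67936881 (PSMB10, minus), chr14:24146619-24146648 (PSME2, minus) and chr6:32853816-32853845 (TAP1, minus). The others lie at chr6:32838778-32838807 (TAP2, minus), chr6:33314076-33314105 (TAPBP, minus), chr5:96807924-96807953 (ERAP1, minus) and chr5:96876460-96876489 (ERAP2, plus). Counted from the annotated start of transcription as base 1, the matches of PSMB10, PSME2, TAP2, TAPBP and ERAP2 all began between bases -58 and -14, that of PSMB8 spanned the start and that of ERAP1 began at base 3. The matches of TAP1 lay further out, between bases -134 and -119. The other window of PSMB8, TAP1, ERAP1 and ERAP2 held no ISRE match. TAP1 and TAPBP each held 2 matches that overlap. TAPBP thus carried the letters close to its start and did not pass the test, and PSMB9 rose 4.04-fold with no match in its own window. By the RefSeq starts of these windows, PSMB9 and TAP1 lie head to head with starts 488 bases apart. The match of TAP1 is 354 to 369 bases from that start of PSMB9. In the GENCODE positions given below, the span of PSMB9 over all its transcripts contains that of TAP1. Of 2 further motifs, the interferon-gamma activated site (TTC, any 3 bases and GAA, in 9.38% of all genes) was found in PSMB8 and TAP1, and the NF-kB letters (GGG, any 2 bases and TTTCC, in 2.33% of all genes) in TAP1 and TAPBP. A match is a description of the sequence and was not tested as a site. Of the partners outside the 10 genes, PSME1, which rose, also held the ISRE letters (bases 6 to 15 from its start), and PSMB5 did not. PSMB5, which did not pass the test, held the letters of the interferon-gamma activated site at bases -158 to -150 and -15 to -7. NLRC5, PSMB6 and PSMB7 are not in the table of windows.

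The catalytic subunits of the immunoproteasome are PSMB8, PSMB9 and PSMB10. Gene positions are those of GENCODE release 29 on GRCh38. PSMB8 (ENSG00000204264, chromosome 6, 32840717 to 32844703, minus strand) encodes the subunit with chymotrypsin-like activity. In samples 1, 2 and 3 it was at 59.3, 52.7 and 52.1 FPKM in OV-BRCA1 and at 21.9, 20.2 and 22.3 in NC. The lowest OV-BRCA1 sample was therefore far above the highest NC sample. The means were 54.7 ± 4.01 and 21.5 ± 1.10 (SD, n = 3 each, log2FC 1.31, SE 0.07, adjusted p = 7.43e-05). PSMB9 (ENSG00000240065, chromosome 6, 32844136 to 32859585, plus strand), which lies in the class II region of the HLA locus beside PSMB8 and TAP1, was at 50.6, 49.9 and 50.9 FPKM in OV-BRCA1 and at 13.6, 11.5 and 12.4 in NC. Its OV-BRCA1 samples were close to each other and had no overlap with NC. The means were 50.5 ± 0.488 and 12.5 ± 1.04 (SD, n = 3 each, log2FC 1.93, SE 0.07, adjusted p = 1.27e-05). PSMB10 (ENSG00000205220, chromosome 16, 67934502 to 67937087, minus strand) lies outside the HLA locus and was at 35.2, 31.3 and 28.3 FPKM in OV-BRCA1 and at 18.4, 17.7 and 17.6 in NC. It rose from 17.9 ± 0.462 to 31.6 ± 3.47 (SD, n = 3 each, log2FC 0.78, SE 0.09, adjusted p = 0.00112). Its fold of 1.77 was below those of the other catalytic subunits, a difference between genes that was not tested.

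Of the 3 constitutive subunits 1 rose, 1 fell and 1 did not pass the test. PSMB7, which PSMB10 replaces, rose slightly (log2FC 0.25, adjusted p = 0.00962), and PSMB6, which PSMB9 replaces, fell (log2FC -0.33, adjusted p = 0.00185), although not when its protein-coding transcripts or its most abundant transcript were tested alone. PSMB5, which PSMB8 replaces, was at 71.4, 51.4 and 37.7 FPKM in OV-BRCA1 and at 50.3, 56.5 and 46.1 in NC (log2FC 0.03, adjusted p = 0.938). Its OV-BRCA1 samples spread on both sides of the NC samples. Among the 3 inducible and 3 constitutive catalytic genes together, the inducible ones took 32.3%, 33.2% and 33.7% of the summed FPKM in OV-BRCA1 and 17.2%, 15.5% and 16.7% in NC. The means of this share were 33.1% ± 0.731 and 16.5% ± 0.853 (SD, n = 3 each), and the groups did not overlap (exact two-sided permutation p = 0.1, the smallest that 3 samples against 3 can give).

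The ratio of each inducible subunit to its partner was compared in the same way, with p-values adjusted over 6 pairs. PSMB9 to PSMB6 moved most on the log2 scale, from an FPKM ratio of 0.173 ± 0.0155 in NC to 0.885 ± 0.0210 in OV-BRCA1 (SD, n = 3 each, exact permutation p = 0.1, adjusted 0.15). PSMB8 to PSMB5 was 0.435, 0.358 and 0.484 in NC and 0.830, 1.03 and 1.38 in OV-BRCA1, so that PSMB8 exceeded its partner in 2 of the 3 OV-BRCA1 samples and in no NC sample. PSMB10 to PSMB7 was 0.128 ± 0.00597 in NC and 0.189 ± 0.0153 in OV-BRCA1, which leaves PSMB7 well above PSMB10 in every sample. Both of these pairs had separate groups and the same exact permutation p as PSMB9 to PSMB6. On the log2 scale of FPKM + 1 the OV-BRCA1 minus NC differences were 2.27 (SE 0.07) for PSMB9 to PSMB6, 1.28 (0.24) for PSMB8 to PSMB5 and 0.53 (0.08) for PSMB10 to PSMB7. With 3 samples against 3 the exact permutation test used for these ratios cannot give a p below 0.1.

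**Figure D2:**
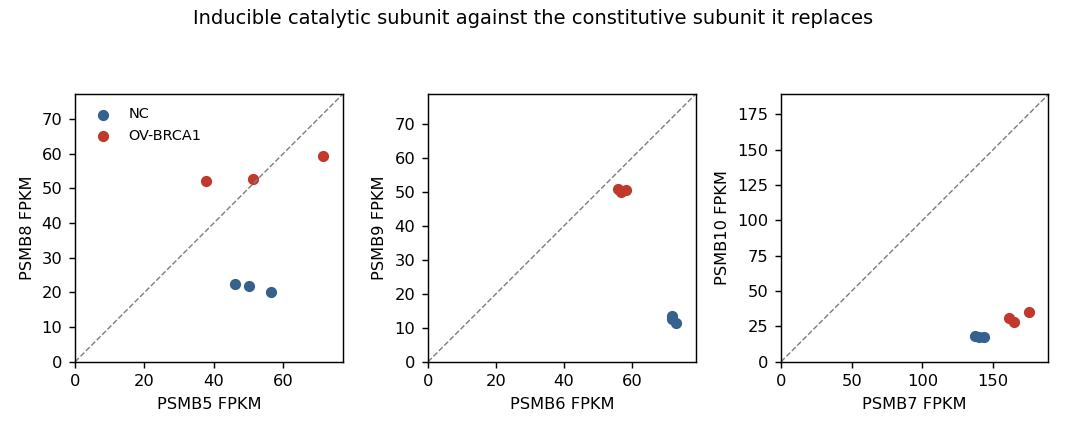
FPKM of each inducible catalytic subunit (vertical axis) against the constitutive subunit it replaces (horizontal axis) in the 3 NC samples (blue) and the 3 OV-BRCA1 samples (red), on equal linear axes with a dashed line where both are equal. The OV-BRCA1 samples move up towards the line for PSMB9 (ratio 0.173 to 0.885) and lie on both sides of it for PSMB8, whereas for PSMB10 all 6 samples stay far below it.

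PSME2 (ENSG00000100911, chromosome 14, 24143362 to 24147570, minus strand) encodes the beta subunit of the activator that caps the proteasome core. It was the most abundant of the 10 genes in both groups, at 147.8, 128.7 and 137.9 FPKM in OV-BRCA1 and 84.8, 85.5 and 88.3 in NC. The groups were far apart relative to the spread within them. The means were 138 ± 9.55 and 86.2 ± 1.84 (SD, n = 3 each, log2FC 0.67, SE 0.06, adjusted p = 0.000508). Its partner PSME1 rose as well (log2FC 0.51, adjusted p = 0.000805). The ratio of PSME2 to PSME1 was 0.882 ± 0.0271 in NC and 0.993 ± 0.0601 in OV-BRCA1 (SD, n = 3 each, exact permutation p = 0.1, adjusted 0.15), a log2 difference of 0.17 (SE 0.06).

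The subunits of the peptide transporter showed the largest and the third largest rise of the 10 genes. TAP1 (ENSG00000168394, chromosome 6, 32845209 to 32853978, minus strand) was at 78.4, 74.2 and 76.5 FPKM in OV-BRCA1 and at 16.0, 15.5 and 16.6 in NC. Within each group the samples were nearly equal. The means were 76.4 ± 2.11 and 16.0 ± 0.572 (SD, n = 3 each, log2FC 2.18, SE 0.05, adjusted p = 3.88e-06), which placed TAP1 at rank 101 of the 16321 genes tested when ordered from the largest rise. TAP2 (ENSG00000204267, chromosome 6, 32821833 to 32838780, minus strand) was at 32.4, 25.8 and 21.7 FPKM in OV-BRCA1 and at 7.61, 6.27 and 6.31 in NC. Its lowest OV-BRCA1 sample was above its highest NC sample by a wide margin, but the OV-BRCA1 samples differed from each other more than those of TAP1. The means were 26.6 ± 5.38 and 6.73 ± 0.760 (SD, n = 3 each, log2FC 1.82, SE 0.15, adjusted p = 0.000393). TAP1 was the more abundant partner in every sample, at 2.40 ± 0.273 times the FPKM of TAP2 in NC and 2.94 ± 0.556 times in OV-BRCA1 (SD, n = 3 each, exact permutation p = 0.2, adjusted 0.24). The groups overlapped in this ratio. As sums of FPKM times transcript length the ratio was 2.13, 1.92 and 1.98 in OV-BRCA1 and 1.33, 1.38 and 1.41 in NC, and the groups were separate (exact permutation p = 0.1, not adjusted).

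TAPBP (ENSG00000231925, chromosome 6, 33299694 to 33314387, minus strand) was at 29.4, 29.96 and 29.5 FPKM in OV-BRCA1 and at 28.8, 26.4 and 28.0 in NC. Each OV-BRCA1 sample lay above each NC sample, the nearest pair being 29.4 and 28.8. The means were 29.6 ± 0.310 and 27.8 ± 1.27 (SD, n = 3 each). The log2FC was 0.09 (SE 0.05, 95% interval -0.04 to 0.22, adjusted p = 0.240), so a rise above 0.22 lay outside the interval while no change lay within it. In NC only PSME2 was more abundant than TAPBP among the 10 genes by FPKM summed over transcripts. In OV-BRCA1 TAP1, PSMB8, PSMB9, NLRC5 and PSMB10 had higher means as well, though the sample ranges of PSMB10 and TAPBP overlapped. On protein-coding transcripts alone, PSMB10 (12.8 to 14.7 FPKM) and NLRC5 (3.32 to 8.75) stood below TAPBP (27.8 to 28.0) in OV-BRCA1.

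The aminopeptidases of the endoplasmic reticulum lie next to each other on chromosome 5. ERAP1 (ENSG00000164307, chromosome 5, 96760810 to 96808100, minus strand), which shortens long precursors to the length that class I molecules hold, was at 13.3, 14.1 and 13.0 FPKM in OV-BRCA1 and at 6.79, 6.32 and 5.64 in NC. The OV-BRCA1 values were about level with each other and well above NC. The means were 13.5 ± 0.537 and 6.25 ± 0.573 (SD, n = 3 each, log2FC 0.999, SE 0.08, adjusted p = 0.000358). This is just under the fold change of the criterion. ERAP1 passed it when OV-BRCA1 replicate 1 (1.01) or 3 (1.02) or NC replicate 1 (1.05) or 2 (1.01) was left out. With all samples kept, it passed with a pseudocount of 0.1 (1.10), 1 other scaling (1.03), protein-coding transcripts only (1.06) and FPKM times transcript length (1.18). It did not pass under the remaining alternatives.

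ERAP2 (ENSG00000164308, chromosome 5, 96875939 to 96919716, plus strand), the related enzyme that acts beside ERAP1, had the lowest level of the 10 genes. It was at 2.04, 2.23 and 3.51 FPKM in OV-BRCA1 and at 1.27, 1.25 and 1.23 in NC, which corresponds to about 68.1 to 146 fragments a sample. The groups did not overlap, and OV-BRCA1 sample 3 stood above the other samples of its group. The means were 2.59 ± 0.799 and 1.25 ± 0.0199 (SD, n = 3 each, log2FC 0.65, SE 0.16, adjusted p = 0.0215), understated at this level by the added 1. The call was lost without NC replicate 1 (adjusted p = 0.0571), 2 (0.0579) or 3 (0.0608). ERAP1 was the more abundant enzyme throughout. ERAP2 stood at 0.154, 0.158 and 0.270 times ERAP1 in OV-BRCA1 and at 0.187, 0.198 and 0.217 times in NC, and the groups overlapped (exact permutation p = 0.3, adjusted 0.3). The mean ratio was 0.194 in OV-BRCA1 and 0.201 in NC, and the order of these means turned without OV-BRCA1 replicate 1 (0.214 against 0.201), OV-BRCA1 replicate 2 (0.212 against 0.201) or NC replicate 3 (0.194 against 0.192).

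NLRC5 (ENSG00000140853, chromosome 16, 56989485 to 57083531, plus strand) was at 30.8, 33.7 and 36.5 FPKM in OV-BRCA1 and at 21.7, 23.2 and 15.0 in NC. Its groups did not overlap, though its NC samples were more spread than those of the other genes. The means were 33.7 ± 2.86 and 19.9 ± 4.38 (SD, n = 3 each, log2FC 0.75, SE 0.16, adjusted p = 0.0152). Without OV-BRCA1 replicate 3 the adjusted p was 0.0527.

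**Figure D3:**
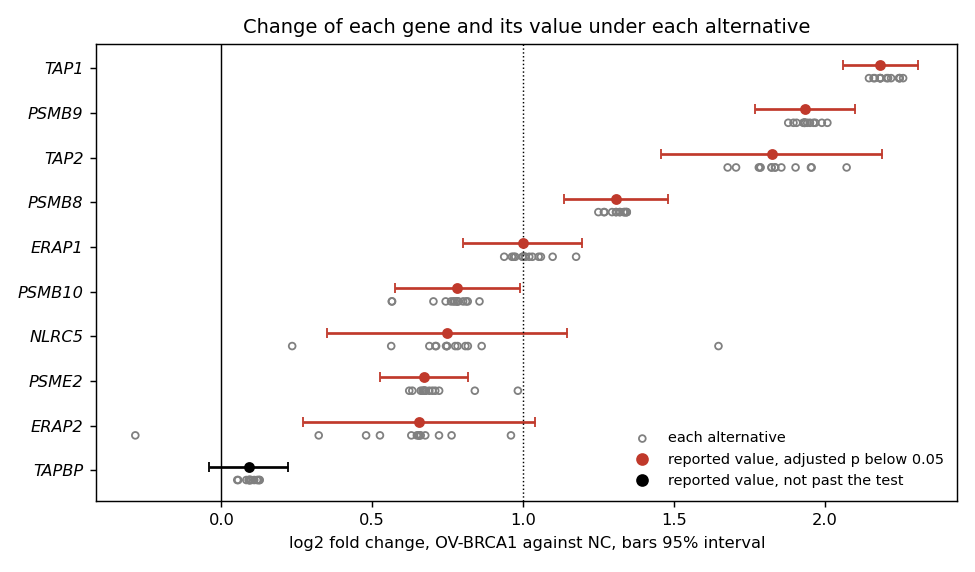
Log2FC of OV-BRCA1 against NC on the log2(FPKM + 1) scale for the 10 genes, with the 95% interval as a bar, red where the adjusted p was below 0.05 and black where it was not, and open circles for the value under each of 14 alternatives. The dotted line marks the criterion of 1, on which ERAP1 (0.999) falls, and the circles of ERAP2 and NLRC5 spread widest, from -0.29 to 0.96 and from 0.23 to 1.65.

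Among the 10 genes the order of levels per length differed between the groups. In NC it ran PSME2, TAPBP, PSMB8, NLRC5, PSMB10, TAP1, PSMB9, TAP2, ERAP1 and ERAP2, where the sample ranges of PSMB8, NLRC5 and PSMB10 overlapped from neighbour to neighbour, as did those of TAP2 and ERAP1. In OV-BRCA1 it ran PSME2, TAP1, PSMB8, PSMB9, NLRC5, PSMB10, TAPBP, TAP2, ERAP1 and ERAP2, where the ranges of NLRC5, PSMB10, TAPBP and TAP2 overlapped from neighbour to neighbour. TAP1 moved ahead of TAPBP, PSMB8, NLRC5 and PSMB10 in this order, and PSMB9 ahead of TAPBP, NLRC5 and PSMB10. The order is that of FPKM summed over all transcripts. On protein-coding transcripts alone, TAP1 (14.4 to 15.5 FPKM) and PSMB9 (11.2 to 13.2) already stood above PSMB10 (7.53 to 10.3) and NLRC5 (2.75 to 5.57) in NC.

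The files divide the 10 genes over 99 annotated transcripts, of which 45 are typed as protein-coding, and 52 passed the filter on their own. Of these, 8 rose and none fell, against 2.85% and 2.63% of the 50925 transcripts tested. They were TAP1-201, PSMB9-207, PSMB8-201, PSMB8-202, ERAP1-202 and PSME2-201, which are protein-coding, PSME2-203, typed as a target of nonsense-mediated decay, and PSMB10-202, typed as a retained intron. With any single sample left out, 4 or 5 rose. A single coding transcript held most of TAP1 (TAP1-201, 96.9% in OV-BRCA1 and 92.3% in NC), PSMB9 (PSMB9-207, 98.4% and 97.0%), TAPBP (TAPBP-234, 90.9% and 88.6%) and PSMB8 (PSMB8-202, 81.5% and 81.6%).

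TAP2 was divided differently in each sample. TAP2-202 stood at 20.1, 9.24 and 0.0483 FPKM in OV-BRCA1 and TAP2-205 at 0, 8.92 and 18.8. The FPKM given to one was low where that given to the other was high, and none of the 4 tested transcripts of TAP2 passed the test. TAP2-202 has 2497 bases and TAP2-205 has 5676, so the sum of FPKM depends on the division. Multiplied by transcript length and summed, TAP2 was at 107.6, 112.4 and 112.9 FPKM times kilobases in OV-BRCA1 and 34.2, 32.2 and 33.6 in NC. On that scale, added after the values were seen, its samples were nearly equal within each group and log2FC was 1.71 (SE 0.04, adjusted p = 3.69e-06).

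PSMB10, PSME2 and NLRC5 held large shares in transcripts that are not typed as protein-coding. For PSMB10 the coding share was 40.9% to 48.5% in OV-BRCA1 and 40.8% to 58.8% in NC. Its main coding transcript PSMB10-201 had a log2FC of 0.56 (adjusted p = 0.0893 over all transcripts tested, and 0.0359 when only the most abundant transcript of each gene was tested) and the retained-intron transcript PSMB10-202 one of 1.22 (adjusted p = 0.0309). For PSME2 the coding share was 55.1% to 59.8% in OV-BRCA1 and 46.7% to 53.9% in NC. For NLRC5 the coding share was only 9.85% to 25.0% over all 6 samples, and retained-intron transcripts held 49.5% to 68.1%. Summed over its protein-coding transcripts alone, NLRC5 was at 3.53, 3.32 and 8.75 FPKM in OV-BRCA1 and 2.75, 5.57 and 3.74 in NC. These groups overlapped (log2FC 0.23, adjusted p = 0.683).

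The makeup of ERAP2 differed between samples of one group. Transcripts typed for nonsense-mediated decay held 48.6%, 54.6% and 7.13% of its FPKM in OV-BRCA1 and 1.77%, 3.83% and 4.36% in NC. The protein-coding transcripts alone were at 1.02, 0.727 and 3.11 FPKM in OV-BRCA1 and 0.893, 0.903 and 1.04 in NC, and the groups overlapped (log2FC 0.32, adjusted p = 0.508). As the sum of FPKM times length, ERAP2 had a log2FC of 0.53 (adjusted p = 0.161).

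**Figure D4:**
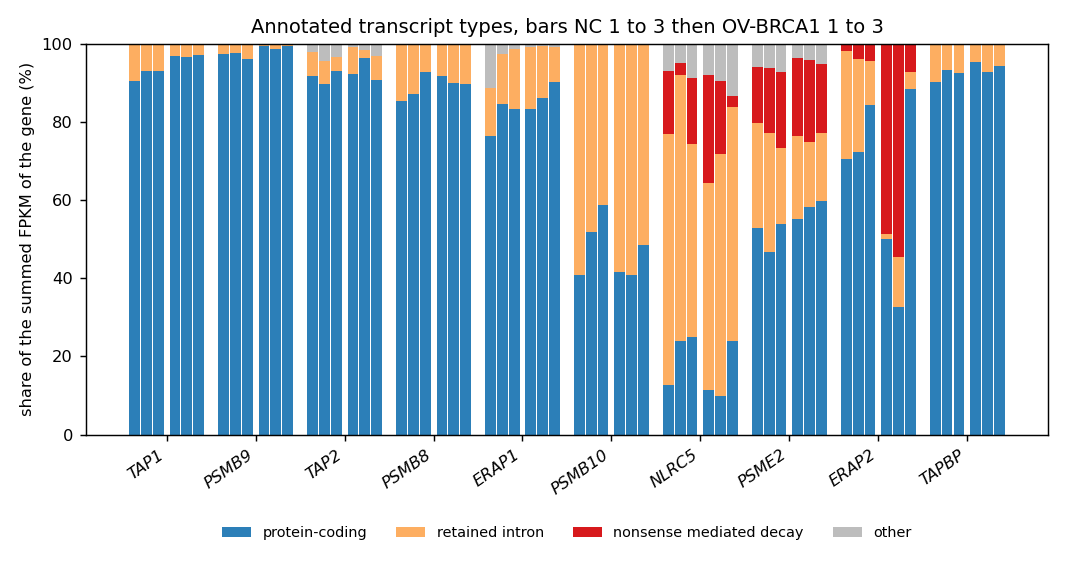
Share (%) of the summed FPKM of each gene in transcripts annotated as protein-coding, retained intron, nonsense-mediated decay or other, with 6 bars a gene, the 3 NC samples first and the 3 OV-BRCA1 samples second. TAP1, PSMB9 and TAPBP are over 90% protein-coding in every sample, NLRC5 is at most 25.0%, and ERAP2 has decay-typed shares of 48.6% and 54.6% in OV-BRCA1 samples 1 and 2.

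Several of these genes overlap others, and the use of strand in the counting is not given in the sources used here. PSMB8 shares 618 of its 2997 exon bases (20.6%) with PSMB8-AS1 on the opposite strand, and TAP1 shares 456 (9.49%). PSMB8-AS1 was at 12.2, 8.08 and 16.4 FPKM in OV-BRCA1 and at 4.20, 3.92 and 3.39 in NC, below PSMB8 in every sample. PSMB8 and PSMB9 share 139 exon bases on opposite strands, and TAP1 and PSMB9 share none. PSMB9 also shares 174 (5.66%) with PSMB8-AS1 on the same strand. The largest overlap in bases was that of TAP2, which shares 2064 of its 6390 exon bases (32.3%) with AL669918.1 on the same strand, a gene at 0 to 0.162 FPKM over the 6 samples. PSMB10 shares 644 of its 1853 exon bases (34.8%) with AC040162.1 on the same strand, which was at 3.18 to 3.59 FPKM in OV-BRCA1 and 1.19 to 2.004 in NC. ERAP1 shares 299 bases with CAST and 252 with AC008906.1, and PSME2 shares 216 with RNF31 and 77 with MIR7703. The part of these overlaps in the values was not tested.

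Genes of the same pathway were taken from 8 lists of 56 genes in all. Of the 11 other subunits of the 20S core, PSMA5 (log2FC 0.45) and PSMA4 (0.29) rose, PSMB4 fell (-0.22) and 8 did not pass the test, with a median of 0.17. PSMA6 was at 0.26, and PSMB3 (-0.05) and PSMB1 (-0.09) were nearest 0. Without NC replicate 3, 4 of them rose, and without OV-BRCA1 replicate 2, 2 fell. Of the 5 other activators and assembly factors, PSME3 (0.71), the nuclear activator, and PSME1 (0.51) rose, while PSMF1 (0.50), PSME4 (0.15) and POMP (0.14) did not pass.

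Of 6 further genes of peptide loading and quality control, 5 rose and none fell, with a median log2FC of 0.72. They were the chaperones CANX (0.83) and CALR (0.82), the tapasin-related TAPBPL (0.76), the signal peptide peptidase HM13 (0.68) and the disulfide isomerase PDIA3 (0.68). UGGT1, which tests the folding of glycoproteins, did not pass (0.39, adjusted p = 0.147). CALR was at 529, 518 and 526 FPKM in OV-BRCA1 and at 291, 297 and 299 in NC. TAPBP thus had a smaller log2FC than each of these 6 genes, a difference between genes that was not tested.

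Of 6 genes for class I heavy chains and B2M, which the peptides are loaded onto, 3 rose and met the criterion, HLA-B (log2FC 2.26), HLA-F (1.61) and HLA-E (1.45). HLA-C (0.59) and HLA-G (-0.28) did not pass. B2M, named after its values were seen, did not pass either (0.60, adjusted p = 0.380), and its NC samples ranged from 123.8 to 517.2 FPKM around the OV-BRCA1 values of 377.2 to 454.9. HLA-C was at 146.6, 152.2 and 152.1 FPKM in OV-BRCA1 and at 149.8, 78.1 and 83.8 in NC. With protein-coding transcripts only, 5 of the 6 rose, and without NC replicate 1, 4 rose. Class I heavy chains are near-identical in parts, and how shared reads were assigned is not given in the sources used here.

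Of 7 cytosolic and other peptidases, LAP3 (log2FC 1.53), the leucine aminopeptidase of the cytosol, and LNPEP (0.67) rose, and BLMH fell (-0.36), with a median of 0.04. LAP3 was at 147.1, 133.1 and 142.1 FPKM in OV-BRCA1 and 46.5, 50.1 and 48.0 in NC. NRDC (-0.21), NPEPPS (-0.19) and THOP1 (0.04) did not pass, and BLMH no longer passed with any 1 of the OV-BRCA1 samples left out. Of 9 transcription factors of class I genes, IRF1 (1.00, adjusted p = 0.0103) and IRF2 (0.47) rose. NFYC (-0.23), RFXANK (-0.19), RFX5 (0.07) and RFXAP (0.07), subunits of the complexes that NLRC5 acts through, did not pass. IRF1 was at 17.4, 17.7 and 27.1 FPKM in OV-BRCA1 and 8.08, 11.5 and 9.50 in NC. Without NC replicate 3, 1 of the 9 fell.

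Of 9 genes of class II presentation, 7 were tested, and 4 of these reached 0.5 FPKM in every sample of both groups. Of the 4, HLA-DRB1 (log2FC 1.97) rose and met the criterion, and HLA-DMA (0.77) and HLA-DMB (0.58) rose without meeting it. CIITA, the class II counterpart of NLRC5, did not pass (0.33, adjusted p = 0.0931). The 3 others, CD74, HLA-DRA and CTSS, reached 0.5 FPKM in every OV-BRCA1 sample but not in 3 NC samples, so that NC alone would not have passed them. Such a filter favours genes that are higher in OV-BRCA1, and their values are a description. CD74, the invariant chain, was at 4.09, 3.94 and 3.49 FPKM in OV-BRCA1 and at 0.0372, 0.216 and 0.229 in NC. HLA-DRA was at 3.33, 4.10 and 3.68 FPKM in OV-BRCA1 and at 0.490, 0.554 and 0.775 in NC. CTSS, a protease that trims the invariant chain, was at 1.99, 2.20 and 2.37 FPKM in OV-BRCA1 and at 0.254, 0.153 and 0.143 in NC. With any 1 OV-BRCA1 sample left out, 4 genes of the list were called higher in place of 6, since CD74 and CTSS were then no longer tested. All class II genes named here stayed at or below 6.22 FPKM, whereas 9 of the 10 genes described above, all but ERAP2, exceeded that level in every OV-BRCA1 sample.

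**Figure D5:**
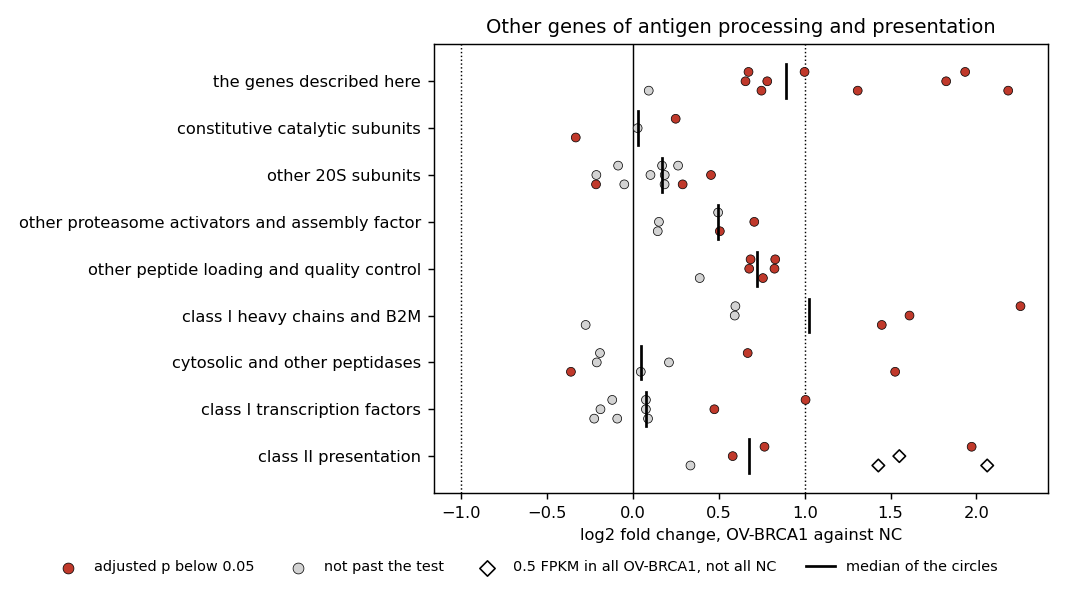
Log2FC of OV-BRCA1 against NC for the 10 genes and the 8 lists, 1 point for each tested gene, red where the adjusted p was below 0.05 and grey where it was not. Open diamonds are the 3 class II genes that reached 0.5 FPKM in every OV-BRCA1 sample but not in every NC sample, the black line is the median of the circles, and dotted lines stand at 1 and -1. The medians were 0.89 for the 10 genes, 0.72 for other loading genes and 1.02 for class I heavy chains and B2M, against 0.03 for the constitutive catalytic subunits and 0.17 for the other 20S subunits.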

How the data were processed

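Total mRNA of 6 SiHa samples, 3 per group by their labels, was sequenced by the authors, who removed adapter and low-quality reads. The FPKM values were deposited by the authors for 199167 transcripts of 58174 genes. The submitters' processing notes name FastQC, HISAT2 and hg38, without versions. The annotation, the quantification tool and the use of strand are not given in the sources used here. The authors tested counts with DESeq, which could not be repeated on FPKM.

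Transcripts were named by GENCODE release 29 (198868 matched, and 98.7% of these had the same GRCh38 position), and FPKM was summed per gene. Groups were compared with limma 3.58.1 (trend, not robust) in R 4.3.3 on log2(FPKM + 1), for genes or transcripts reaching 0.5 FPKM in 3 or more samples, with Benjamini-Hochberg adjustment. On this scale the fold change of low genes is understated. Ratios and shares were compared with exact two-sided permutation tests. Tables and plots were made in Python 3.11.15 with pandas 2.3.3, numpy 2.4.6, scipy 1.17.1 and matplotlib 3.10.9. The 10 genes, the lists and the tests were chosen with earlier results of these data known. All 10 genes were named, with up to 4 genes of largest and 2 of smallest absolute change in each other list, and the 3 genes outside the lists closest to the gene with the largest change. A gene of one list and a marker are not reported here and were left out of the counts of their lists.

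Depth was estimated from the FPKM steps of low values in 14085 single-transcript genes of 600 to 5000 bases. Only 31.7% to 35.9% of low values fell within 0.1 of a whole fragment, so whole reads were not recovered. Intervals cover the spread between these samples, and the fragment numbers are estimates. On simulated data for 15775 genes of this comparison, the test recovered 77.4% of 93 genes changed by 1 on the log2 scale. It recovered 92.8% of 97 changed by 2, and called 14 unchanged genes. The simulated noise was normal and independent between genes, and far fewer genes were changed than were called in the data. These rates therefore need not hold for the data. The alternatives were a pseudocount of 0.1, no filter, 2 other scalings, protein-coding transcripts only, the most abundant transcript, a replicate block and each sample left out. The sum of FPKM times transcript length, also for the ratio of TAP1 to TAP2, and the mean FPKM ratios with each sample left out were added after the values were seen.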

Additional observations from a re-analysis of the deposited data

How the results depend on the processing

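The 14 alternatives kept the direction and the call of TAP1, PSMB9, PSMB8, PSMB10, PSME2, ERAP1 and TAPBP. For PSMB10 with its most abundant transcript, PSMB10-201, the adjusted p was 0.0359, whereas among all transcripts it was 0.0893. The number of the 10 genes that rose was 9 in the reported fit, 8 without a filter on low values and as FPKM times transcript length, 7 with protein-coding transcripts only, 6 with the most abundant transcript of each gene, and 8 or 9 with 1 sample left out. None fell under any alternative, and 3 to 5 met the criterion of the study. ERAP2 reversed with the most abundant transcript (log2FC -0.29, adjusted p = 0.606), and without a filter its adjusted p was 0.0648. With the most abundant transcript the log2FC was 2.07 for TAP2 (adjusted p = 0.295) and 1.65 for NLRC5 (adjusted p = 0.185). That setting tests 1 transcript in place of the sum, and it called 3291 genes in place of 5764 and 13 genes of the other lists higher in place of 23. With a pseudocount of 0.1, 1280 genes met the criterion in place of 651, and scaling to nuclear protein-coding genes called 6 list genes lower in place of 3. The cause of these changes was not tested. Of the transcripts of the 10 genes, 4 to 5 rose with 1 sample left out and 2 with the replicate block, in place of 8. Samples with the same replicate number did not deviate together (r = -0.024, 0.025 and 0.014). This cannot show whether the samples were prepared in pairs, which the labels do not say. With the replicate block 9 of the 10 genes rose, 4 of them past the criterion, and 4595 genes were called. On the log2 scale of FPKM + 1 the 6 ratios kept their direction under a pseudocount of 0.1, with coding transcripts only and with each sample left out. With coding transcripts only, that of PSMB10 to PSMB7 was 0.32 in place of 0.53, that of PSME2 to PSME1 0.30 in place of 0.17 and that of ERAP2 to ERAP1 -0.74 in place of -0.34. As a difference of mean FPKM ratios, chosen after the values were seen, the ratio of ERAP2 to ERAP1 (-0.00674) lay between -0.0446 and 0.0133 with 1 sample left out and turned without OV-BRCA1 replicate 1 (0.0133), OV-BRCA1 replicate 2 (0.0110) or NC replicate 3 (0.00161). The other 5 kept their direction, and that of TAP1 to TAP2 (0.542) lay between 0.249 without OV-BRCA1 replicate 3 and 0.802 without OV-BRCA1 replicate 1. The estimated depth limits ERAP2 most, with fewer than 150 fragments in each sample.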

Other observations

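The 3 genes outside the lists whose pattern over the 6 samples was most like that of TAP1 were HCP5, LIF and HIST1H4H. Likeness was the root mean square difference of log2(FPKM + 1), centred per gene over the 6 samples, and it was 0.0315 for HCP5, 0.0613 for LIF and 0.0729 for HIST1H4H. HCP5, a long noncoding RNA gene of the HLA class I region, was at 13.4, 12.4 and 13.0 FPKM in OV-BRCA1 and at 1.97, 2.10 and 2.17 in NC. LIF, a cytokine of the IL-6 family, was at 46.1, 48.0 and 45.6 FPKM in OV-BRCA1 and at 8.84, 8.92 and 9.03 in NC. HIST1H4H, a histone H4 gene, was at 225.5, 232.0 and 228.4 FPKM in OV-BRCA1 and at 46.9, 49.0 and 45.9 in NC. These genes were picked for their likeness over the same 6 samples, so their closeness is a description.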
